A study of Mus musculus with 12 samples.

Results

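Described here are 10 genes of cholesterol and lipid handling that are known as targets or partners of the liver X receptors (LXR): Nr1h3, Abca1, Abcg1, Apoe, Mylip, Srebf1, Scd2, Ch25h, Lpl and Cd36. They were chosen by symbol, with earlier results of these data known. All 10 were found among the 15555 genes of the table and among the 12671 genes with enough counts to be tested. RNA was measured by sequencing in mouse bone-marrow-derived macrophages, which are marrow cells grown to day 9 with L-cell supernatant as a source of the growth factor CSF-1, in medium with fetal bovine serum and with no other agent named. The 4 genotypes had 3 libraries each: wild type (WT, named control in the table), Cbl-/-, Cbl-b-/- and the double knockout of both genes (DKO). Cbl and Cbl-b are E3 ubiquitin ligases that attach ubiquitin to activated receptors, the CSF-1 receptor among them. The labels give no age, sex or strain of the mice, and do not say whether a knockout was germline or made in chosen cells, nor whether replicates were separate animals. They mention equimolar pooling of RNA before library preparation but not what was pooled. What the p-values take into account is thus the spread of these libraries, possibly a technical one.

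LXRα (Nr1h3) and LXRβ (Nr1h2) are nuclear receptors that bind oxysterols, the oxidised forms of cholesterol, and act on DNA as pairs with the retinoid X receptors. In macrophages they are known to turn on the export of cholesterol through Abca1 and Abcg1 to apolipoprotein acceptors such as Apoe, to limit uptake through Mylip, and to raise fatty acid synthesis and desaturation through Srebf1 and the desaturases. Lpl and Cd36, which free and take up fatty acids, are also known as targets of PPARγ, a related receptor.

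In the libraries labelled DKO, 9 of the 10 genes passed the test against WT (35.4% of all tested genes did), and they did not move as a block. Apoe was 6.24-fold lower, Ch25h 5.32-fold lower and Mylip modestly lower. Lpl, Scd2, Abcg1 and Nr1h3 were 2.22-fold to 2.66-fold higher, and Cd36 and Abca1 were 1.81-fold and 1.46-fold higher. Srebf1 did not pass. In Cbl-/- 6 genes passed (9.87% of all tested genes did), led by Abca1 and Cd36, at 1.84-fold and 1.91-fold above WT. In the libraries labelled Cbl-b-/- no member passed with edgeR, where 0.489% of all tested genes (62) did. With DESeq2 2 members passed (Nr1h3 and Mylip), where 146 of all tested genes did.

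Total counts per library ran from 21048103 to 43946503. Levels are CPM, counts scaled to a common library size with TMM factors. The Cbl transcript checked its label: WT had 140 ± 3.4 CPM (SD, n = 3), Cbl-/- had 51.5 ± 2.3, the libraries labelled Cbl-b-/- had 139 ± 3.0 and those labelled DKO had 37.6 ± 3.1. The Cblb transcript did not check the other labels, at 59.4 ± 3.5 CPM in WT, 52.8 ± 2.9 in the libraries labelled Cbl-b-/- and 71.7 ± 3.2 in those labelled DKO. The counts thus do not check these labels, and every direction below for these 2 groups refers to libraries so labelled. The third library labelled DKO stood apart from the other 2 of its group, with a chi-square per degree of freedom of 44.7 and 55.3 over genes, against 3.93 to 12.3 for all other pairs of replicates. Replicates of that group varied by 11.9% (biological coefficient of variation) against 4.25% to 7.88% in the others. Summed macrophage markers were high in every library: 12 of 12 were in the table, their sum ran from 20900 to 23100 CPM in WT and from 17500 to 20700 in DKO, and 2 were called higher and 7 lower in DKO. Most of the sum was Lyz2. Lyz2, Csf1r and Cd68 stood at 15700, 2210 and 1270 CPM in WT and at 14100, 1710 and 1150 in DKO. The list was split: means of Mrc1 (55.8 CPM in WT, 15.2 in DKO), C1qa (147, 47.4), C1qb (447, 207), C1qc (413, 195) and Mertk (28.8, 12.5) were lower in DKO. Those of Cd14 (179, 283) and Fcgr1 (74.9, 132) were higher. Sums of other marker lists moved with the DKO label too, at far lower levels. Neutrophil markers (7 of 12 in the table, with Ly6g, Mpo and Elane having no row) ran from 41 to 49.4 CPM in WT and from 90.6 to 117 in DKO (4 called higher, 1 lower). Monocyte and progenitor markers (8 of 8) ran from 205 to 210 and from 278 to 327 (5 higher, 1 lower). Stromal markers (7 of 10) ran from 2.9 to 6.43 and from 14 to 17 (4 higher, 0 lower), and osteoclast markers (6 of 8) from 22.9 to 37.5 and from 54.2 to 57 (5 higher, 0 lower). Against their sums, the means of Mmp8 (31.4 CPM in WT, 20.3 in DKO), Csf3r (10.1, 8.08), Cd34 (77.1, 65.4) and Spn (73, 70.4) were lower in DKO. Dendritic cell markers (6 of 8) ran from 16.4 to 19.7 CPM in WT and from 30.6 to 32.9 in DKO (2 called higher, 0 lower), mostly Itgax (mean 17.1 and 28.8). Megakaryocyte markers (5 of 8) ran from 65.2 to 76.9 and from 31.3 to 35.3 (0 higher, 2 lower), mostly Pf4 (66.9 and 31), while Itga2b went the other way (0.0635 and 0.296). Marker sums moved in Cbl-/- as well: macrophage markers ran from 18200 to 19200 CPM (2 called higher, 3 lower), neutrophil markers from 55.9 to 57.5 (3 higher, 0 lower) and monocyte and progenitor markers from 259 to 272 (4 higher, 0 lower). Adipocyte markers, of interest because fat cells are rich in Lpl and Cd36, had 3 of 10 genes in the table, and the sum of these 3 did not exceed 0.165 CPM in any library. Each gene of the table had at least 1 count in the first WT library. Markers without a row, of this list or the others, could thus not be judged in any genotype. The part of the other lists in the results below was not tested. In bulk RNA, fewer cells of a type and less RNA per cell cannot be told apart.

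**Figure D1:**
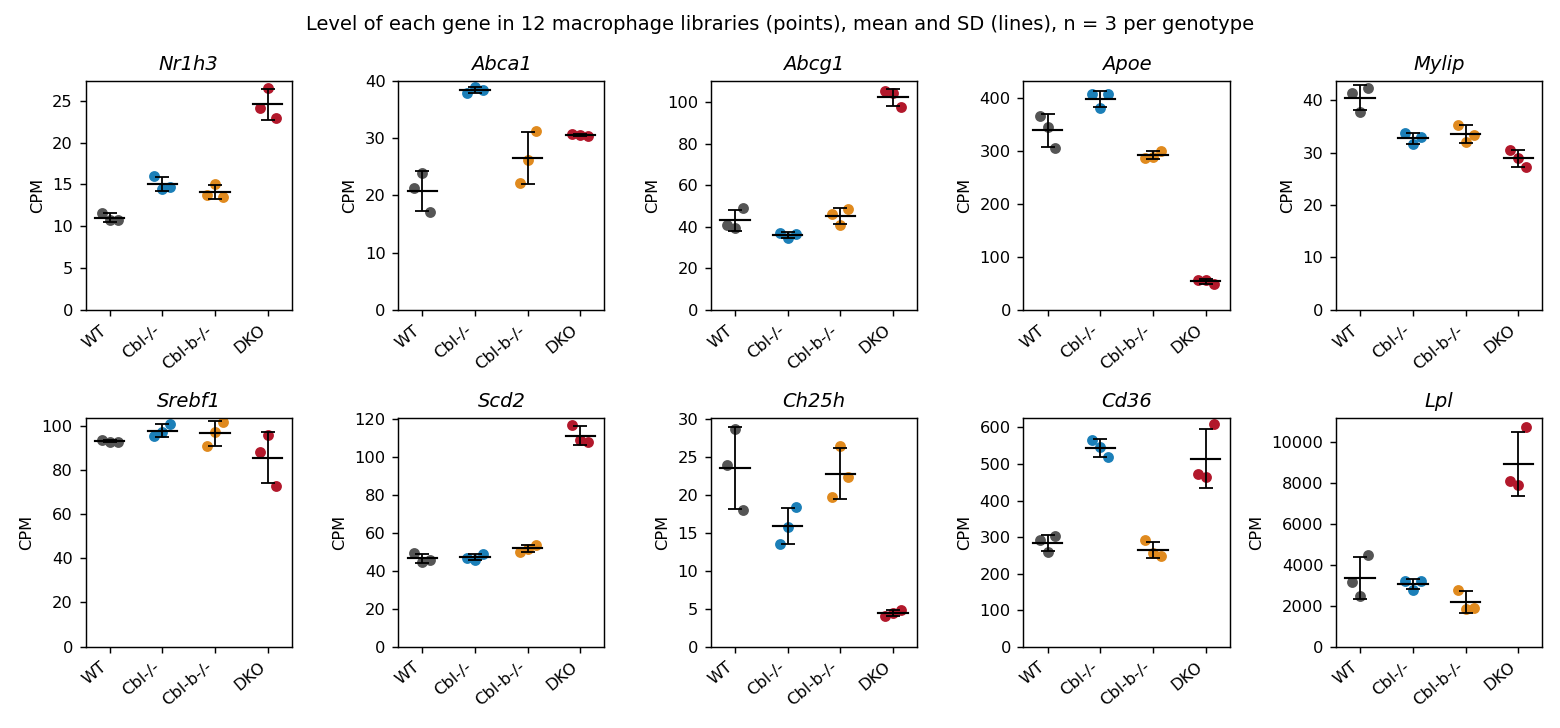
CPM of the 10 genes in each of the 12 libraries (points) with the mean of the 3 libraries of a genotype and its SD, each gene on its own axis. Apoe lies between 48.6 and 57.3 CPM in the libraries labelled DKO against 305.8 to 366.6 in WT, while Srebf1 lies between 88.1 and 101.7 in all libraries but the third DKO library, at 72.9.

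The receptor gene Nr1h3 (ENSMUSG00000002108, GRCm38 chromosome 2, 91184061 to 91202834, minus strand) rose in both genotypes with lowered Cbl transcript. Its level was 11.6, 10.7 and 10.8 CPM in the 3 WT libraries, 16.0, 14.5 and 14.7 in Cbl-/-, 13.7, 15.1 and 13.5 in those labelled Cbl-b-/-, and 24.2, 26.6 and 22.9 in those labelled DKO. WT was lowest with no overlap with any other genotype, DKO was highest with none, and the 2 single-knockout labels overlapped. The log2 change against WT was 0.45 in Cbl-/- (SE 0.09, adjusted p = 0.0029) and 1.15 in DKO (SE 0.09, adjusted p = 3.3e-08). In Cbl-b-/- it was 0.36, which missed the threshold with an adjusted p of 0.11 and passed it with DESeq2 (adjusted p = 0.038) and without the third DKO library (adjusted p = 0.04). The other genes of the receptor machinery did not follow Nr1h3. Of 9 tested receptors, partners, coactivators and corepressors, Nr1h3 was the 1 gene called higher in DKO against WT. Another 4 were called lower and 4 did not pass, where 19.1% of all tested genes were called higher and 16.3% lower. The median log2 change of the 9, Nr1h3 among them, was -0.17, and -0.0386 without the third DKO library. Rxra, the retinoid X receptor α that pairs with LXR, fell from 56.6 ± 3.9 CPM in WT to 21 ± 1.4 in DKO (log2 change -1.44, SE 0.07, adjusted p = 3.1e-10) and to 47.1 ± 1.2 in Cbl-/- (log2 change -0.27, adjusted p = 0.021). The Cbl-/- call was lost without the first or the second WT library or any 1 Cbl-/- library (adjusted p from 0.062 to 0.13). Nr1h2, picked after its values were seen because it encodes LXRβ, stood at 71.5 CPM in WT and had a log2 change of -0.17 in DKO with an adjusted p of 0.18; without the second DKO library it was -0.31 (adjusted p = 0.0059).

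Abca1 (ENSMUSG00000015243, chromosome 4, 53030787 to 53159895, minus strand) encodes the transporter that loads cholesterol and phospholipid onto lipid-poor apolipoproteins. Abca1 read 21.3, 24.02 and 17.2 CPM in the WT libraries, 38.0, 38.9 and 38.5 in those of Cbl-/-, 22.2, 26.3 and 31.2 in those labelled Cbl-b-/- and 30.7, 30.5 and 30.5 in those labelled DKO. The 3 Cbl-/- libraries were the highest of the 12 and the DKO libraries lay between them and WT, while Cbl-b-/- overlapped with both WT and DKO. The log2 change against WT was 0.88 in Cbl-/- (SE 0.11, adjusted p = 5.7e-05) and 0.55 in DKO (SE 0.11, adjusted p = 0.0013). DKO was lower than Cbl-/- by a log2 change of -0.33 (adjusted p = 0.034), a call that was lost, with adjusted p from 0.07 to 0.09, when any 1 of those 6 libraries was left out. In Cbl-b-/- the log2 change of 0.34 had an adjusted p of 0.38.

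Abcg1 (ENSMUSG00000024030, chromosome 17, 31057675 to 31117988, plus strand), the transporter that moves cholesterol towards mature lipoproteins, had another order. Abcg1 read 41.0, 39.6 and 49.1 CPM in the WT libraries, 37.2, 34.7 and 36.6 in those of Cbl-/-, 46.0, 40.9 and 48.7 in those labelled Cbl-b-/- and 105.6, 104.3 and 97.9 in those labelled DKO. The DKO libraries were about 2.4-fold above WT and far from all others, and Cbl-/- was the lowest genotype. The log2 change in DKO against WT was 1.25 with an SE of 0.08 (adjusted p = 6.3e-09). The Cbl-/- value was -0.26 (SE 0.08), with an adjusted p of 0.062, although these libraries did not overlap with WT. That value passed with DESeq2 (adjusted p = 0.04) and with the Cbl-/- and WT libraries fitted alone (adjusted p = 0.034). Against Cbl-/- the DKO libraries were 2.84-fold higher (adjusted p = 1.2e-09), so the transporters Abca1 and Abcg1 differed between these 2 groups in opposite directions.

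Apoe (ENSMUSG00000002985, chromosome 7, 19696109 to 19699188, minus strand), the apolipoprotein that macrophages secrete and that accepts exported cholesterol, showed the largest change of the 10. Apoe read 366.6, 344.9 and 305.8 CPM in the WT libraries, 407.8, 380.8 and 407.5 in those of Cbl-/-, 286.7, 288.9 and 300.5 in those labelled Cbl-b-/- and 57.1, 57.3 and 48.6 in those labelled DKO. The 4 genotypes did not overlap, with DKO far below the rest and Cbl-/- on top. In DKO the log2 change against WT was -2.64 with an SE of 0.08 (adjusted p = 5.9e-13), and against Cbl-/- it was -2.88 (adjusted p = 1.7e-13). Among all tested genes, ranked by level per exon length, Apoe moved from percentile 98.1 in WT to 84.3 in DKO. The rise in Cbl-/- was small, at 0.23 (SE 0.07, adjusted p = 0.049), and was lost in a fit with a replicate block (0.052) and when any 1 of 9 libraries was left out: the second or the third WT library, any Cbl-/- or Cbl-b-/- library or the first DKO library. Without the third WT library it fell to 0.16. In Cbl-b-/- the log2 change of -0.22 had an adjusted p of 0.36.

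Mylip (ENSMUSG00000038175, chromosome 13, 45389742 to 45412022, plus strand) encodes a ubiquitin ligase, also called IDOL, that marks the LDL receptor for degradation. Mylip read 41.3, 37.8 and 42.3 CPM in the WT libraries, 33.7, 31.6 and 32.9 in those of Cbl-/-, 35.3, 31.9 and 33.4 in those labelled Cbl-b-/- and 30.6, 28.9 and 27.3 in those labelled DKO. WT was the highest genotype with no overlap, DKO the lowest with none, and the 2 single-knockout labels overlapped. The log2 change against WT was -0.30 in Cbl-/- (SE 0.07, adjusted p = 0.0091) and -0.48 in DKO (SE 0.07, adjusted p = 4.7e-05). The call in Cbl-/- was lost without the first WT library (adjusted p = 0.053) or without the second Cbl-/- library (adjusted p = 0.054). In Cbl-b-/- the log2 change of -0.27 had an adjusted p of 0.14 and passed with DESeq2 (adjusted p = 0.042) and without the third DKO library (adjusted p = 0.032). Thus Mylip moved in the direction opposite to Nr1h3 in DKO.

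Srebf1 (ENSMUSG00000020538, chromosome 11, 60199089 to 60222581, minus strand) encodes the transcription factor SREBP1, which turns on fatty acid synthesis. Srebf1 read 93.3, 92.5 and 92.8 CPM in the WT libraries, 95.1, 97.0 and 100.9 in those of Cbl-/-, 90.6, 97.2 and 101.7 in those labelled Cbl-b-/- and 88.1, 95.7 and 72.9 in those labelled DKO. The Cbl-/- libraries were all slightly above WT and the DKO libraries were the most spread. No genotype changed it past the test. In DKO the log2 change against WT was -0.12 (95% interval -0.285 to 0.0462, adjusted p = 0.26), with the lowest value in the third library: it was -0.01 (adjusted p = 0.86) without that library and -0.21 (adjusted p = 0.04) without the second. A count per gene sums the Srebf1 isoforms, so a shift between SREBP-1a and SREBP-1c could not be seen. Srebf1 overlaps Rai1 on the other strand, at 18.2 to 21.1 CPM; no source used here says whether counting used strand.

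Promoter sequences are shown for Abca1 and Srebf1 because 1 rose and the other did not, while their windows hold nearly the same 16 bases. RefSeq windows on GRCm38.p6, 250 bases before to 50 after a gene's start, were at hand for 7 of the 10 genes (12 windows), and not for Abcg1, Lpl and Scd2. The LXR element was searched as 2 copies of AGGTCA in a row with any 4 bases between them, on both strands and with up to 3 mismatches, a limit chosen after the matches were seen. It was in 2 of the 12 windows and in 21.9% of 32851 windows of all genes, so a match of this kind is common. The matches lie on the strand opposite to the gene, from 67 to 52 bases before the start in Abca1 and from 182 to 167 before the start in Srebf1, whose window is that of a start inside the gene. Read on their own strand, with the half-sites in capitals and the spacer in lower case, they are:
Abca1 match: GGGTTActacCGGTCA
Srebf1 match: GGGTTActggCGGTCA
Of the 16 bases, 14 are identical. The letters shared by both, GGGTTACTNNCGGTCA, were found exactly in 3 windows (0.00913% of all), those of Abca1, Srebf1 and Fasn, the fatty acid synthase gene. These letters were taken from the matches of Abca1 and Srebf1, so those 2 finds were fixed in advance. The small share is thus no result about these 2 genes. The 250 bases before each start follow, read 5′ to 3′ along the gene, with the match in capitals as it reads on the gene's strand; that of Abca1 is chr4:53159896-53160145 and that of Srebf1 chr11:60210472-60210721, both on the minus strand.
Abca1 upstream: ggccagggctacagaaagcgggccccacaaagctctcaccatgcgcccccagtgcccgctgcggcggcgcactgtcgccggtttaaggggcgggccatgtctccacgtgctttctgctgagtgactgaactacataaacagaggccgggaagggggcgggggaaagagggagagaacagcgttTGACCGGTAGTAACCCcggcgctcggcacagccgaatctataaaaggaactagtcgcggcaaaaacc
Srebf1 upstream: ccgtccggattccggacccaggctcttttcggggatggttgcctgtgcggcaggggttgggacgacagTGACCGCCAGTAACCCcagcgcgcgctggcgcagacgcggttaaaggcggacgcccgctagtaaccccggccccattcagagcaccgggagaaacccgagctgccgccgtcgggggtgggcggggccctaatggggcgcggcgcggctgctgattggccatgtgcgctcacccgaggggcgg
The PPAR element, searched as 2 copies of AGGTCA with any 1 base between them, with up to 2 mismatches on both strands, was found in the window of Cd36 alone among the members, from 63 to 51 bases before a start, and in 3.86% of all windows. It can overlap the LXR search, since both use the same half-site. A match describes letters in these windows, and no binding was measured.

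Scd2 (ENSMUSG00000025203, chromosome 19, 44293674 to 44306864, plus strand) encodes a stearoyl-CoA desaturase, which makes monounsaturated fatty acids. Scd2 read 49.3, 44.6 and 46.0 CPM in the WT libraries, 46.9, 45.9 and 48.9 in those of Cbl-/-, 50.1, 51.6 and 53.9 in those labelled Cbl-b-/- and 117.2, 109.1 and 108.0 in those labelled DKO. The DKO libraries were more than 2-fold above all 9 others, which lay close together. The log2 change in DKO against WT was 1.26 (SE 0.06, adjusted p = 1.7e-10), against 0.02 (adjusted p = 0.91) in Cbl-/- and 0.15 (adjusted p = 0.54) in Cbl-b-/-. Its close paralog Scd1, at far lower counts, went from 0.918 ± 0.018 CPM in WT to 1.79 ± 0.13 in Cbl-/- (log2 change 0.96, adjusted p = 0.01) and 6.51 ± 0.55 in DKO (log2 change 2.82, SE 0.21, adjusted p = 3.3e-08). No source used here says how reads that match both genes were counted, so the low Scd1 counts are uncertain.

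Ch25h (ENSMUSG00000050370, chromosome 19, 34473778 to 34475164, minus strand), a gene with a single exon of 1387 bases, encodes cholesterol 25-hydroxylase, which makes the oxysterol 25-hydroxycholesterol. Ch25h read 23.9, 28.7 and 17.9 CPM in the WT libraries, 13.5, 15.8 and 18.3 in those of Cbl-/-, 19.6, 26.4 and 22.3 in those labelled Cbl-b-/- and 3.99, 4.45 and 4.83 in those labelled DKO. All 3 DKO libraries were far below the other 9. WT overlapped both single-knockout labels, while Cbl-/- lay below Cbl-b-/- with no overlap. In Cbl-b-/- against Cbl-/- the log2 difference was 0.52, which missed the threshold (adjusted p = 0.059). It passed with DESeq2 (0.021), with a replicate block (0.049) and with these 2 labels fitted alone (0.016). It also passed without the second WT library (0.036), the third WT library (0.024) or the first Cbl-b-/- library (0.045). The log2 change in DKO against WT was -2.41 with an SE of 0.17 (adjusted p = 4.3e-08). The Cbl-/- value was -0.57 (SE 0.16, adjusted p = 0.029), with groups that overlap. That call was lost with the 2 genotypes fitted alone (adjusted p = 0.14) and without the first WT library (0.094), the second WT library (0.16), the first Cbl-/- library (0.14), the second Cbl-/- library (0.093) or the third DKO library (0.061). The noncoding gene Gm26902 overlaps Ch25h on the other strand, at 0.855 to 1.94 CPM. Cyp27a1, which makes 27-hydroxycholesterol, moved the same way at lower counts: it fell from 5.09 ± 0.6 CPM in WT to 2.11 ± 0.065 in DKO (log2 change -1.27, adjusted p = 2e-05) and to 3.2 ± 0.57 in Cbl-/- (log2 change -0.68, adjusted p = 0.014). Its call in Cbl-/- was lost without the first WT library (0.063), the second WT library (0.078) or the first Cbl-/- library (0.09).

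Lpl (ENSMUSG00000015568, chromosome 8, 68880491 to 68907448, plus strand) encodes lipoprotein lipase, which frees fatty acids from the triglycerides of lipoproteins. Lpl read 3147, 2461 and 4462 CPM in the WT libraries, 3204, 2791 and 3203 in those of Cbl-/-, 2796, 1839 and 1879 in those labelled Cbl-b-/- and 8120, 7931 and 10750 in those labelled DKO. Every DKO library was above all others, while the remaining genotypes overlapped and the WT libraries alone spanned 2461 to 4462. The log2 change in DKO against WT was 1.41 (SE 0.24, adjusted p = 0.0014), and it was 1.26 (adjusted p = 0.0083) without the third DKO library, the highest. In Cbl-/- it was -0.13 (adjusted p = 0.83). In Cbl-b-/- it was -0.63, with a 95% interval from -1.16 to -0.0979 and an adjusted p of 0.55.

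Cd36 (ENSMUSG00000002944, chromosome 5, 17781690 to 17888801, minus strand) encodes a scavenger receptor that takes up oxidised LDL and long-chain fatty acids. Cd36 read 291.3, 258.7 and 301.9 CPM in the WT libraries, 565.0, 547.7 and 518.1 in those of Cbl-/-, 290.5, 257.3 and 246.8 in those labelled Cbl-b-/- and 471.3, 465.3 and 608.3 in those labelled DKO. The libraries of Cbl-/- and DKO were high and overlapped, and those of WT and Cbl-b-/- were low and overlapped. The log2 change against WT was 0.94 in Cbl-/- (SE 0.09, adjusted p = 5.8e-06) and 0.86 in DKO (SE 0.09, adjusted p = 3.8e-06). Between DKO and Cbl-/- it was -0.08 (95% interval -0.277 to 0.121, adjusted p = 0.58), and -0.21 with an adjusted p of 0.029 without the third DKO library, whose value of 608.3 CPM was the highest of all 12. In Cbl-b-/- the log2 change against WT was -0.10 (adjusted p = 0.92).

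**Figure D2:**
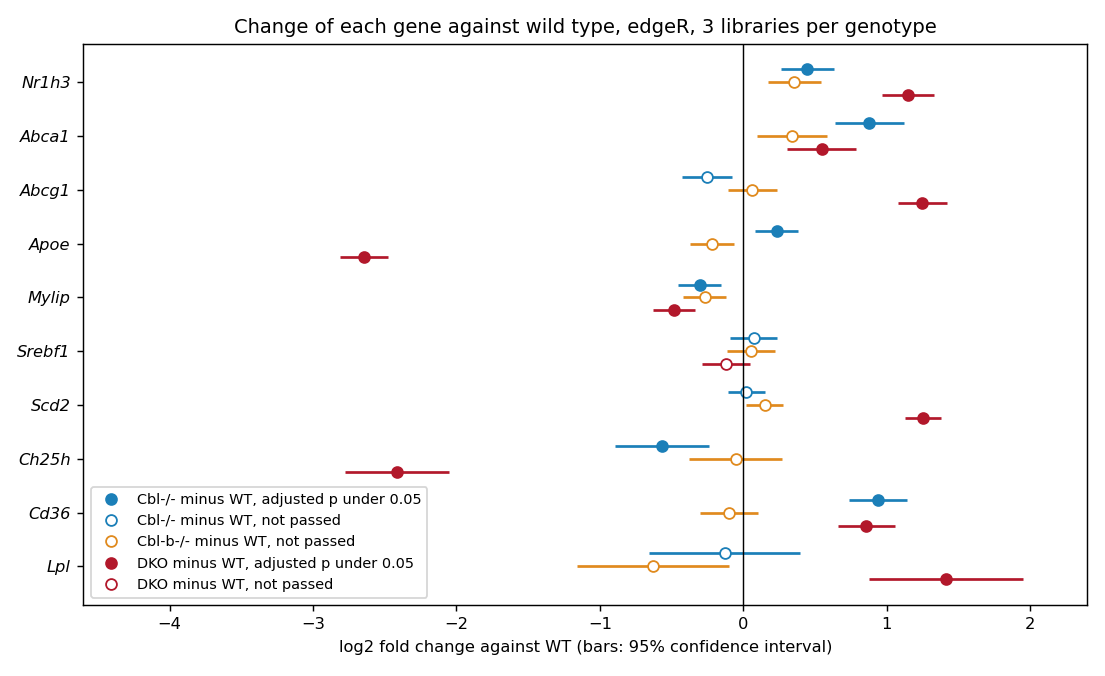
Log2 fold change of each of the 10 genes against WT in Cbl-/-, Cbl-b-/- and DKO, with bars for the 95% interval; marks that passed the test at an adjusted p of 0.05 are filled. The DKO values run from -2.64 for Apoe to 1.41 for Lpl, while no value in Cbl-b-/- is filled.

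Read against all genes, the share of members that passed differed by comparison. In Cbl-/- against WT, 6 members passed, 4 higher (Cd36, Abca1, Nr1h3 and Apoe) and 2 lower (Ch25h and Mylip). Of the tested genes, 9.87% passed there, 5.68% higher and 4.19% lower. With 1 library left out, that count ran from 3 to 6, being 3 without the second Cbl-/- library. In Cbl-b-/- against WT none passed with edgeR, where 0.489% of the tested genes (62) did. With DESeq2 2 members and 146 of all genes passed, with limma voom 0 and 54, and with edgeR without the third DKO library 2 and 144. An edgeR p under 0.05 before adjustment was found for 6 members, a rule for which the share of all genes was not computed. In DKO against WT, 9 passed, 6 higher and 3 lower. Of the tested genes, 35.4% passed there, 19.1% higher and 16.3% lower. The median size of the log2 change, whatever its sign, was 1.2 over the 10 members and 0.201 over the tested genes in that comparison. Because the members were chosen with earlier results of these data known, their shares and sizes beside those of all genes are a description. Against Cbl-/-, 7 members passed in DKO (Abcg1, Lpl, Nr1h3 and Scd2 higher, Apoe, Abca1 and Ch25h lower), where 29.6% of the tested genes did. Against Cbl-b-/-, 8 passed in DKO (Abcg1, Cd36, Lpl, Nr1h3 and Scd2 higher, Apoe, Mylip and Ch25h lower), where 33.2% did. The Mylip call was lost with those 2 genotypes fitted alone (adjusted p = 0.11) and without the first Cbl-b-/- library (0.12), the third Cbl-b-/- library (0.055) or the third DKO library (0.061). Between the single-knockout labels, Cbl-b-/- was lower than Cbl-/- for Cd36 (log2 difference -1.04, adjusted p = 3.1e-06), Abca1 (-0.54, adjusted p = 0.0066) and Apoe (-0.45, adjusted p = 0.00068) and higher for Abcg1 (0.32, adjusted p = 0.026), so that 4 members passed where 7.37% of the tested genes did. The Abcg1 call was lost without any 1 Cbl-/- library or without the first or the third Cbl-b-/- library (adjusted p from 0.068 to 0.12). These comparisons share libraries and are not independent of each other.

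The design also allows a test of whether the change in DKO equals the sum of the changes in Cbl-/- and Cbl-b-/- on the log2 scale; the departure is the DKO change less both single changes. It passed for 6 of the 10 members, 3 in each direction. Of the tested genes, 15.7% passed, 8.39% with a positive and 7.28% with a negative departure. For Apoe the sum of the single changes was 0.02 against -2.64 in DKO, and for Ch25h it was -0.62 against -2.41. For Lpl, Abcg1 and Scd2 the sums were -0.76, -0.19 and 0.17 against 1.41, 1.25 and 1.26 in DKO. For Abca1 the sum of 1.22 was above the DKO value of 0.55. The departure did not pass for Cd36 (0.02, adjusted p = 0.94) or Mylip (0.09, adjusted p = 0.6), whose sums of 0.84 and -0.57 lay beside DKO values of 0.86 and -0.48. It did not pass for Nr1h3 (0.35, adjusted p = 0.063) or Srebf1 (-0.25, adjusted p = 0.15) either, although the Nr1h3 value passed without the second Cbl-b-/- library (adjusted p = 0.048) or the third DKO library (0.023), and that of Srebf1 passed with libraries scaled to total counts (0.046) or without the second DKO library (0.031).

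**Figure D3:**
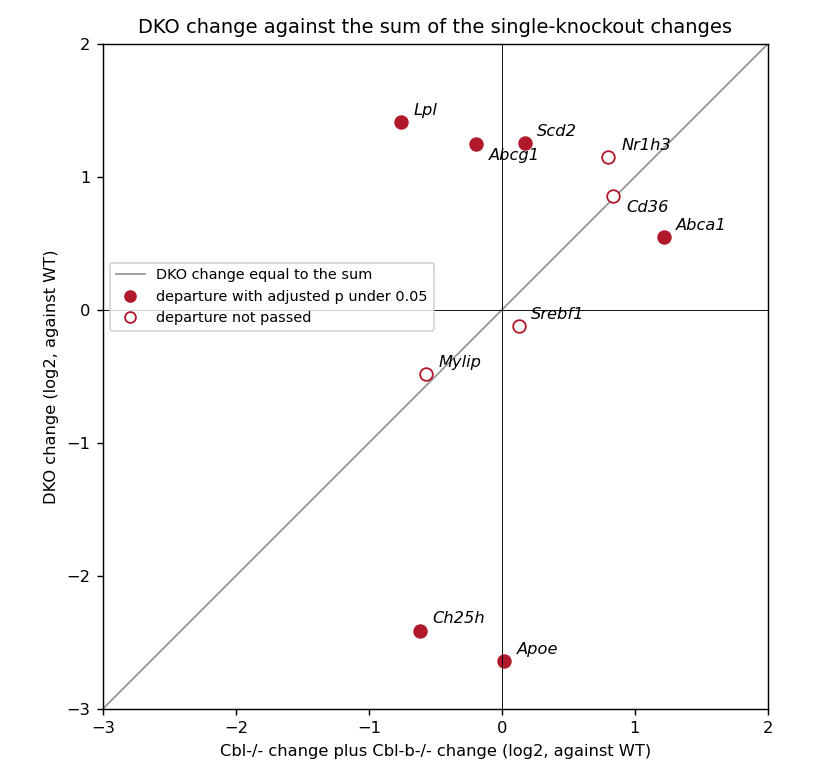
Sum of the log2 changes in Cbl-/- and Cbl-b-/- against WT (horizontal axis) and the log2 change in DKO against WT (vertical axis), 1 point per gene, with the line on which both are equal. Cd36 and Mylip lie near the line, Apoe lies farthest below it at a sum of 0.02 and a DKO value of -2.64, and Lpl farthest above it at -0.76 and 1.41.

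Genes around the members were counted in 9 lists, given here for DKO against WT, where 19.1% of all tested genes were called higher and 16.3% lower. Lists near those shares, such as PPAR targets (5 and 3 of 17) and uptake receptors (2 and 3 of 13), are no result about the list. The list of cholesterol synthesis and its regulator SREBP2 had more genes called higher than lower: 11 of 24 rose, 2 fell and 11 did not pass. Its median log2 change was 0.20 against -0.00294 over all tested genes. The 11 that rose encode enzymes of the pathway. The 2 that fell, named after their values were seen, were Srebf2, the gene of SREBP2 (-0.22, adjusted p = 0.026), and Scap (-0.26, adjusted p = 0.028). The sizes were small. Sqle, which encodes squalene epoxidase, an enzyme known to control the rate of the pathway, went from 126.0 ± 3.9 to 165.0 ± 3.0 CPM (log2 change 0.38, adjusted p = 1.2e-05). With libraries scaled to total counts, 8 rose and 4 fell, and the median was 0.13. Without the second WT library 8 rose, and 0 fell without the first or the second WT library or with the 2 genotypes fitted alone. Sc5d, a late enzyme of the pathway, had the smallest adjusted p in Cbl-/- (log2 change 0.38, adjusted p = 0.003). Of 16 tested genes of fatty acid synthesis and desaturation, 7 rose and 2 fell (3 and 2 with total counts, 9 and 4 without the third DKO library). The smallest adjusted p there was that of Acsl1, which activates long-chain fatty acids: 59.2 ± 2.4 CPM in WT, 95.2 ± 3.2 in Cbl-/- (log2 change 0.69, adjusted p = 2e-07), 64.9 ± 2.4 in Cbl-b-/- and 153.0 ± 2.6 in DKO (log2 change 1.37, adjusted p = 1.9e-11).

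Of 12 tested other LXR targets, 4 rose, 3 fell and 5 did not pass, with a median of 0.04 that turned to -0.03 with total counts. Arl4c, a small GTPase that LXR is known to turn on, fell from 242 ± 15 to 154.0 ± 2.6 CPM (log2 change -0.65, adjusted p = 1.7e-07). Of 17 tested PPAR targets and genes of fatty acid use, 5 rose and 3 fell; 0 to 3 fell over the alternatives, with 0 without the first WT library and 1 without the second WT or the first DKO library. The fatty acid carriers Fabp5 and Fabp4 rose from 96.7 ± 4.9 to 165.0 ± 3.9 CPM (log2 change 0.77, adjusted p = 4.9e-08) and from 8.01 ± 1.7 to 18.1 ± 1.2 CPM (log2 change 1.18, adjusted p = 2.8e-06), and in Cbl-/- both were also higher than in WT (0.38, adjusted p = 0.00039, and 0.51, adjusted p = 0.022). The Fabp4 call in Cbl-/- was lost without the first or the second WT library or any 1 Cbl-/- library (adjusted p from 0.058 to 0.11). Of 13 uptake receptors, 2 rose and 3 fell in DKO, 5 fell with total counts or without the second DKO library, and 4 rose without the third. The lipoprotein receptors Lrp8 and Sort1 fell by 0.52 (adjusted p = 5.7e-06) and 0.55 (adjusted p = 6.1e-06) on the log2 scale. Marco, a scavenger receptor, rose in Cbl-/- from 0.638 ± 0.14 to 2.09 ± 0.28 CPM (log2 change 1.71, adjusted p = 0.001), and in DKO stood at 0.558 ± 0.099.

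Of 13 genes of sterol esters, lysosomal lipid and intracellular transport, 5 rose and 1 fell (2 and 3 with total counts, 3 and 1 without the second DKO library, 2 and 0 with the 2 genotypes fitted alone). Npc2, which carries cholesterol out of lysosomes, had a log2 change of 0.24 (adjusted p = 0.0017). Gramd1b, a cholesterol carrier between plasma membrane and endoplasmic reticulum, rose in Cbl-/- (0.44, adjusted p = 0.0001) and stood at WT level in DKO (-0.01, adjusted p = 0.9). The list for oxysterols and bile acid intermediates held 4 tested genes beside Ch25h, 3 encoding enzymes and 1 a receptor (Gpr183, named after its values were seen). Of these, 1 rose, the epoxide hydrolase gene Ephx1 (log2 change 0.72, adjusted p = 3.6e-05), and 1 fell (Cyp27a1). Whether Ephx1 acts on sterols in these cells was not tested. Of 10 tested partners of Lpl, 1 rose, the lipase gene Lipg, from 0.0397 ± 0.036 to 0.492 ± 0.068 CPM, and 3 rose without the third DKO library. Lipg counts were very low, so the size of its change is uncertain (log2 change 3.61, SE 0.72). With at least 5 CPM in 3 libraries required, 6 partners were tested and 0 rose. Apoc2, the apolipoprotein that activates Lpl, rose in Cbl-/- from 0.596 ± 0.12 to 1.4 ± 0.2 CPM (log2 change 1.22, adjusted p = 0.024), a call that was lost without the second or the third WT library or the first or the third Cbl-/- library (0.074 to 0.12). In Cbl-/- against WT the 9 lists had at most 3 genes called higher and at most 2 called lower each, where 5.68% and 4.19% of all tested genes were. None passed in any list in Cbl-b-/-, where 0.489% of all tested genes did, so this is no result about the lists. With Cbl-/- and WT fitted alone, up to 7 (cholesterol synthesis) were higher and up to 5 (PPAR targets) lower in Cbl-/-. That fit called 1484 of all genes higher and 1269 lower. Without the third DKO library up to 5 (fatty acid synthesis) were higher and up to 3 lower, where 1215 and 991 of all genes were. The lists were drawn up with earlier results of these data known, so their counts are a description.

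**Figure D4:**
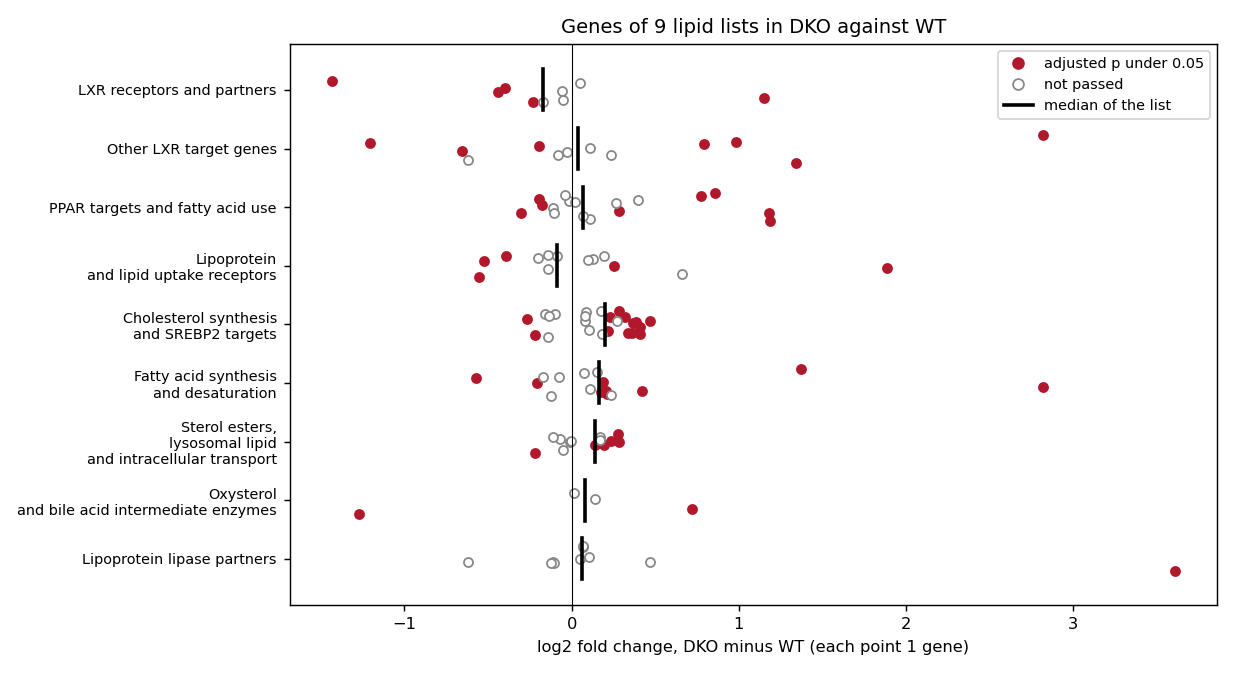
Log2 fold change in DKO against WT of each tested gene (1 point per gene) in each of 9 lipid lists, with a bar at the median of the list. Filled points are genes called higher or lower. Cholesterol synthesis has the most genes called higher, 11 of 24, and the receptor list has 1 called higher and 4 lower of 9.

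Per kilobase of exon (RPKM computed from the counts over the union of exons), the members spanned a wide range in WT: Lpl stood at 320, Apoe at 159, Cd36 at 79.1, Ch25h at 16.9, Srebf1 at 16.5, Mylip at 12.5, Scd2 at 8.53, Abcg1 at 5.93, Nr1h3 at 4.39 and Abca1 at 2.01. Neighbours in this order had separate ranges over the 3 libraries, except Ch25h (12.9 to 20.7), which overlapped both Srebf1 (16.4 to 16.6) and Mylip (11.7 to 13.1). In DKO the order was Lpl at 853, Cd36 at 143, Apoe at 25.4, Scd2 at 20.4, Srebf1 at 15.2, Abcg1 at 14.1, Nr1h3 at 9.77, Mylip at 8.95, Ch25h at 3.19 and Abca1 at 2.95 RPKM. By mean, Ch25h thus went from the fourth to the ninth place, and Scd2 from the seventh to the fourth place. In DKO the ranges of Ch25h (2.87 to 3.48) and Abca1 (2.94 to 2.97) overlapped, so their order there is not settled. Srebf1 (12.9 to 17.0) also overlapped Abcg1 (13.4 to 14.5), and Nr1h3 (9.12 to 10.6) overlapped Mylip (8.45 to 9.46). The value depends on the length used: with the longest transcript Lpl stood at 816 in WT and Srebf1 at 21.6, above Ch25h.

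The genes whose pattern over the 12 libraries was most like that of each member were found by the root mean square difference between log2 CPM values centred on each gene's mean, over 10100 genes. A difference of 0 means the same pattern, and a member's own spread around its mean is given for scale. For Nr1h3 (spread 0.423) they were Timp2 (0.0979) and Gas7 (0.103). For Abcg1 (spread 0.588) they were Pip5k1b (0.123) and Scd2 (0.145), and for Scd2 (spread 0.525) Abcg1 (0.145) and Mov10 (0.146), so these 2 members were among each other's nearest. Tnf (0.162) and Mxd1 (0.163) were nearest to Abca1 (spread 0.356): Tnf, an inflammatory cytokine, stood at 93.8 CPM in Cbl-/-, 87.0 in DKO, 70.5 in Cbl-b-/- and 52.6 in WT, the order of Abca1. Apoe (spread 1.16) was nearest to Mrc1 (0.334), the mannose receptor, and Dmpk (0.335), and Ch25h (spread 0.988) to Itga8 (0.13) and Dmpk (0.271). Cd36 (spread 0.489) was nearest to Fam49a (0.165) and Spint1 (0.186), and Lpl (spread 0.802) to Plk2 (0.176) and Serpinb6b (0.177), which share its wide WT range. Mylip (spread 0.183) was nearest to Abhd12 (0.0654) and Marf1 (0.0759). Srebf1 (spread 0.12) was nearest to Rnf187 (0.0328) and Lmf2 (0.0352), which, like Srebf1, had a wide spread in DKO, at 123 ± 18 and 100 ± 15 CPM. The points of this measure share the libraries, and it is a description of pattern alone.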

How the data were processed

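RNA-seq was done on 12 libraries of bone-marrow-derived macrophages, 3 per genotype, from stranded libraries of messenger RNA, per the labels' protocols. The authors deposited raw read counts per gene. Their genome was GRCm38.p5, per the submitters' processing notes, and no source used here names the aligner, the counter or whether strand was used. Each gene in the table had at least 1 count in the first WT library, so genes at 0 there were not analysed here. Columns named as control were taken as WT.

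The counts were fitted with edgeR 4.0.16 in R 4.3.3. After filterByExpr, 12671 genes were tested and 2884 were left out. TMM factors scaled the libraries, and the robust quasi-likelihood fit held 1 mean per genotype over all 12 libraries. Adjusted p-values come from its F test, adjusted by Benjamini and Hochberg's method across the 12671 genes and called at 0.05. Standard errors (SE) came from the log2 change and its F statistic, and 95% intervals from the matching t quantile. RPKM was computed from the counts with exon lengths of the GENCODE annotation of GRCm38. Precision is limited by 3 libraries per group and by total counts from 21048103 to 43946503. The pipeline was tested on simulated counts. Alternatives were DESeq2 1.42.0, limma 3.58.1 (voom), other scalings and filters, a replicate block and leaving out each library.

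The members, lists and tests were chosen with earlier results of these data known. Beside the members, the named genes are, of each list, up to 2 with the smallest adjusted p in DKO against WT and the 1 with the smallest in Cbl-/- against WT, plus the 2 genes of most similar pattern to each member among tested genes whose mean log2 CPM (prior count 2) was 1 or more. Some genes that this rule names are not reported here.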

Additional observations from a re-analysis of the deposited data

Results flagged for a closer look

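For 6 of the 10 genes the change in the libraries labelled DKO differed from the sum of the changes in the 2 single-knockout labels, by edgeR's test of that difference. The departure on the log2 scale was -2.66 for Apoe (SE 0.10, adjusted p = 3.7e-11), -1.79 for Ch25h (SE 0.23, adjusted p = 8.7e-05) and -0.67 for Abca1 (SE 0.16, adjusted p = 0.0092). It was 2.17 for Lpl (SE 0.34, adjusted p = 0.0021), 1.44 for Abcg1 (SE 0.12, adjusted p = 3e-07) and 1.09 for Scd2 (SE 0.09, adjusted p = 2.7e-07). The directions refer to libraries labelled Cbl-b-/- and DKO, whose Cblb transcript was not lowered. Each of the 6 passed with any 1 library left out, the third DKO library included. No outlier test was run within groups of 3 libraries.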

How the results depend on the processing

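Each of 70 member results (10 genes in 6 comparisons and the departure) was recomputed under the alternatives. Of 1390 values, 1330 kept their side of the threshold, 1316 of them with the same sign and 14, over 7 results that did not pass, with the other sign. Another 33 lost and 27 gained the threshold with the same direction, and 0 called values changed sign. With 1 library left out, members called ran from 3 to 6 in Cbl-/- against WT, from 0 to 2 in Cbl-b-/- against WT, from 9 to 10 in DKO against WT and from 6 to 7 for the departure, and DESeq2 called 2 members in Cbl-b-/- against WT. Over all tested genes, leaving out 1 library gave 733 to 2206 calls in Cbl-/- against WT (1251 with all), 35 to 144 in Cbl-b-/- against WT (62 with all; 146 with DESeq2), 3355 to 4797 in DKO against WT, and 533 to 1903 between the single-knockout labels (934 with all). For the departure it gave 1448 to 2780 (1985 with all). With the compared genotypes fitted alone, the calls were 2753 in Cbl-/- against WT, 2760 in DKO against Cbl-b-/- (4211 with all) and 1712 between the single-knockout labels. Scaling to total counts changed the split in DKO against WT from 2423 higher and 2062 lower to 1773 and 2873, with a median of all genes at -0.0733, and the median departure moved to -0.106. Members called for the departure were then 7, and 2430 of all tested genes were called for it. Same-numbered libraries did not deviate together: 0 of 18 pairs had a correlation above 0.1, and 4 of 12 libraries correlated best with their own number. With the replicate number as a block, 5 members passed in Cbl-/- against WT, where Apoe was lost, 0 in Cbl-b-/- against WT, 9 in DKO against WT and 6 for the departure. Calls over all tested genes in that fit were 1139, 60, 4280 and 1815, in the same order.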
